A study of Mus musculus with 46 samples.

Results

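Glycolysis breaks glucose down to pyruvate in the cytosol and yields ATP without oxygen. Hexokinases trap glucose as glucose 6-phosphate, phosphofructokinase commits it to the pathway, aldolase splits the sugar, *Gapdh* then makes NADH and *Pgk1* and *Pkm* make ATP, and lactate dehydrogenase turns pyruvate into lactate so that the NADH can be reused. Macrophages and microglia that meet bacterial lipopolysaccharide (LPS) are known to lean on this pathway, and hypoxia-inducible factor 1 (HIF1) and MYC are known to drive transcription of many of its genes. The 10 genes described here were taken by symbol: the hexokinases *Hk2* and *Hk3*, *Pfkfb3*, which makes the activator of phosphofructokinase, the phosphofructokinase subunit *Pfkp*, the aldolase *Aldoa*, *Gapdh*, the phosphoglycerate kinase *Pgk1*, the enolase *Eno1*, the pyruvate kinase *Pkm* and the lactate dehydrogenase subunit *Ldha*. All 10 were listed in each of the 3 tables of the series, among 15285 genes in the table of the LPS experiment, 19930 in the GLOBAL table and 15695 in the SVZ table.

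The series asked how myeloid cells that refill the mouse brain after microglia have been removed compare with the microglia that were there before. All mice were male C57BL/6 animals aged 2 months at the start. PLX3397, given in chow, blocks the CSF1 receptor, on which microglia depend. In the LPS experiment, CD11b+CD45int cells were sorted from whole brain hemispheres of vehicle mice, called control microglia, and of mice that had received PLX3397 for 14 days and then 28 days of recovery, called WM repopulating cells because they refill the brain from white matter (WM). Cells were taken without LPS (0 hr; n = 3 control and 4 WM libraries), 6 hr (n = 5 and 4) and 24 hr (n = 4 and 4) after an injection of 0.33 mg/kg LPS. The GLOBAL experiment holds sorted cells of the same kind from control mice (n = 4) and from mice given PLX3397 for 7 days and 28 days of recovery (n = 3), after which microglia return from cells left throughout the brain. The SVZ experiment holds microdissected subventricular zone (SVZ) tissue of control mice, of mice at the end of 14 days of PLX3397 and of mice given 5 days of recovery after the same 14 days (n = 5 each). A sorted library is a mixture of whatever the CD11b+CD45int gate let through, and a tissue library of all cells of the SVZ. In such bulk samples, fewer cells of a type and less RNA per cell cannot be told apart. The labels number the libraries of a group without naming litters or days, so the p-values measure the spread between these libraries.

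Levels are in FPKM, in which a gene's reads are divided by the gene's length and the library's total, so that levels of different genes can be set side by side. As recovered from the steps of the values, the libraries held 5237753 to 10379752 reads in the LPS experiment, 2206171 to 5373289 reads in the GLOBAL experiment and 4574237 to 10608718 reads in the SVZ experiment. In the LPS experiment, the 10 microglia markers summed to between 14844 and 36048 FPKM in every sorted library. Control replicate 2 at 6 hr and control replicate 4 at 24 hr stood apart from their groups, with mean correlations with the other libraries of the group of 0.938 and 0.947 over 12684 genes, against 0.955 to 0.979 for the other 22 libraries. Tests were made with limma within each table, on log2(FPKM + 1) values of all genes that reached 1 FPKM in at least 3 libraries. A gene is called higher or lower, or said to rise or fall, where its adjusted p is under 0.05.

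The members lie on 7 chromosomes of the mouse genome (build GRCm38, RefSeq gene bounds). *Hk2* (Entrez 15277) spans chr6:82725025-82774454, *Hk3* (212032) chr13:55005985-55021475, *Pfkfb3* (170768) chr2:11471430-11554071, *Pfkp* (56421) chr13:6579874-6649060 and *Aldoa* (11674) chr7:126795234-126800994, all on the minus strand. *Gapdh* (14433) spans chr6:125161852-125166467 on the minus strand. *Pgk1* (18655) spans chrX:106187100-106203699, *Eno1* (13806) chr4:150236708-150248879, *Pkm* (18746) chr9:59656576-59679372 and *Ldha* (16828) chr7:46842274-46855627 on the plus strand. The 250 bases before 4 of their starts are printed because the first 3 belong to the members with the largest rises called in both cell origins after LPS, and the last to the only member that fell in both. Capitals mark ACGTG or GCGTG on either strand, the core letters of the element that HIF1 binds. Where matches overlap, they are joined.

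*Ldha*, chr7:46845554-46845803, plus strand: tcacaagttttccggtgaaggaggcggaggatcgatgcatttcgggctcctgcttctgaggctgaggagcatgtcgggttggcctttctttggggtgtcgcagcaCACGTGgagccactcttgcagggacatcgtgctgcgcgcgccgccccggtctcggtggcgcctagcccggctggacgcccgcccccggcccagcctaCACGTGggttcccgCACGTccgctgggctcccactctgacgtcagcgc

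*Pfkp*, chr13:6648772-6649021, minus strand: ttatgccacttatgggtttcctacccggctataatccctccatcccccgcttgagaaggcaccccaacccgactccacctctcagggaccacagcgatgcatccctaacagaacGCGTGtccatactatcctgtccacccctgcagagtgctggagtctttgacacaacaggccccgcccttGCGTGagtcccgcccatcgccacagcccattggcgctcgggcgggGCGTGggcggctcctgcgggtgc

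*Pkm*, chr9:59656326-59656575, plus strand: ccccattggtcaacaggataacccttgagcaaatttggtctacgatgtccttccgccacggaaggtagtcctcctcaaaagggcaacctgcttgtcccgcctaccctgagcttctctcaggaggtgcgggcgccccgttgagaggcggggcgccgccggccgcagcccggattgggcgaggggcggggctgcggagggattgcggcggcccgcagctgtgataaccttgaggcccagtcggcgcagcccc

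*Hk3*, chr13:55021386-55021635, minus strand: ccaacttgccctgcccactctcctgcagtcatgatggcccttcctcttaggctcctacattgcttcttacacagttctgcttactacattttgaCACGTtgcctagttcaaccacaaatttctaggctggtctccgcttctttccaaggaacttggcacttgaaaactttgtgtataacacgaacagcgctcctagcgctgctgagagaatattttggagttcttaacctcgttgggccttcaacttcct

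The *Ldha* window held 5 matches, which include 2 copies of CACGTG, the E-box letters to which MYC binds. The *Pfkp* window held 3 matches, the *Hk3* window 1 and the *Pkm* window 0, while the windows of another *Pkm* start and of another *Ldha* start held 1 each, with no CACGTG. Counted by gene, 10 of the 10 members held at least 1 match in a window of some start, against 41.5% of 27025 genes. RefSeq lists 17 starts for the 10 members, and 15 of these windows (88.2%) held a match, against 38.6% of the 32851 windows of all genes, but 2 windows of *Aldoa* and 2 of *Eno1* overlap and hold the same matches. The member windows held 47.2% to 71.2% G and C, and the part of this in the share of windows with a match was not tested. CACGTG was found in 2 of the 17 windows, those of the printed start of *Ldha* and of an inner start of *Pfkfb3*, against 6.02% of all windows. These matches describe letters, not binding.

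In control microglia without LPS, *Aldoa* had the highest level of the 10 genes, at 265 ± 30.2 FPKM (mean ± SD, n = 3). *Pkm* (89.2 ± 6.52), *Hk2* (80.6 ± 4.36), *Ldha* (77 ± 16.4) and *Eno1* (75.4 ± 14.4) followed within the spread of their neighbours. *Hk3* (43.2 ± 7.27) and *Pfkfb3* (42.3 ± 6.87) lay next and overlapped, then *Gapdh* at 11.7 ± 2.62, *Pgk1* at 2.93 ± 0.822 and *Pfkp* at 2.08 ± 1.65, of which the last 2 overlapped. WM repopulating cells without LPS gave levels between 2.5 ± 0.788 for *Pgk1* and 300.2 ± 34.7 FPKM for *Aldoa* (n = 4). Hexokinase transcripts in these cells came mostly from *Hk2* and *Hk3*, since *Hk1*, the isozyme of most tissues, was at 5.24 ± 0.462 FPKM in control microglia. For phosphofructokinase, the liver type subunit *Pfkl* was at 42.2 ± 1.93 FPKM, above *Pfkp* in every library. For lactate dehydrogenase, *Ldhb*, the subunit that favours the use of lactate, was at 261 ± 39.5 FPKM, so that *Ldha* made up a median of 24.7% of the sum of both.

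The levels of *Gapdh*, *Pgk1* and *Eno1* carry a reservation. Of the 43-base windows of their transcripts (43 bases being the read length in the study's methods), 83.1%, 68.1% and 74.1% also occurred word for word in transcripts of other genes in the GENCODE annotation, with 263, 5 and 12 such genes. The closest copies were the pseudogene *Gm7336* for *Gapdh*, *Pgk1-rs7* for *Pgk1* and *Eno1b* for *Eno1*. The share was 39.7% for *Pkm*, 22.5% for *Ldha*, 18.8% for *Aldoa* and 17.2% for *Pfkp*, where the shared part belongs to the overlapping gene *Pitrm1*, and at most 0.799% for *Hk2*, *Hk3* and *Pfkfb3*. The labels name reads of 150 bases instead, and at that length the shares were 74% for *Gapdh*, 66.1% for *Pgk1*, 49% for *Eno1*, 15% for *Pfkp* and 2.89% for *Pkm*, and 0% for the other 5. Reads from such windows fit more than 1 gene, and how they were counted sets the level. *Gapdh* rested on 63 to 262 reads a library in the LPS experiment, *Pgk1* on 22 to 88 and *Pfkp* on 16 to 799, against 824 to 4371 for *Ldha*.

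**Figure D1:**
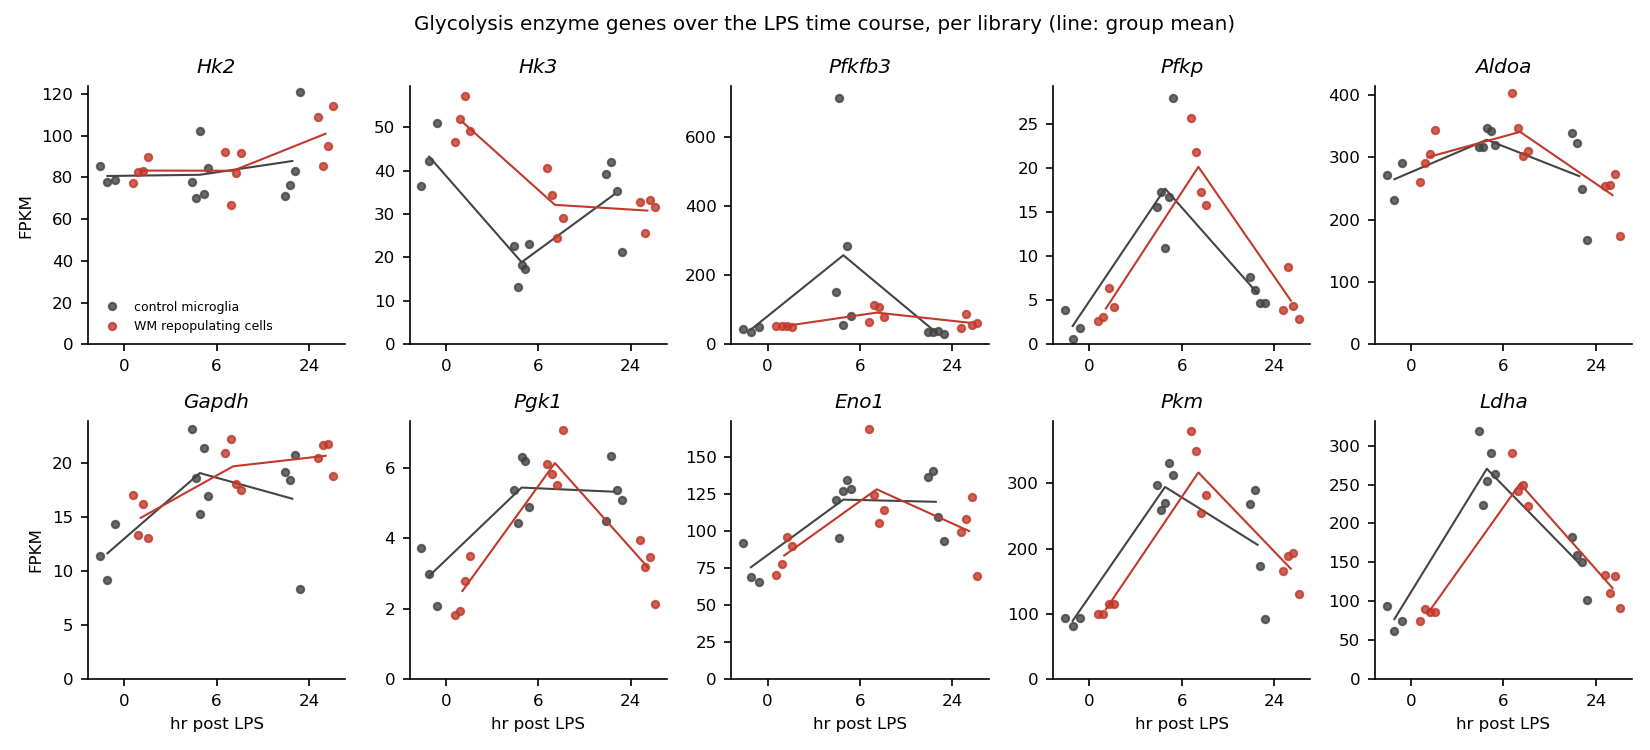
FPKM of the 10 glycolysis enzyme genes in each library of the LPS experiment (vertical axes, a scale for each gene) at 0, 6 and 24 hr post LPS (horizontal axis). Points are libraries of control microglia (grey) and WM repopulating cells (red) and lines join the group means. *Ldha*, *Pkm* and *Pfkp* peak at 6 hr in both origins, *Hk3* is lower at 6 hr, and *Pfkfb3* reaches 712 FPKM in 1 control library.

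At 6 hr post LPS, 7 of the 10 genes were higher in control microglia than at 0 hr, 1 was lower and 2 were not called. Of all 12684 genes tested, 21.4% were higher and 21.1% lower. The median difference of the 10 genes was 0.70 on the log2(FPKM + 1) scale, against 0.01 for all genes. The rise was large at the end of the pathway. *Ldha* was at 94.5, 62 and 74.6 FPKM at 0 hr and at 319, 224, 254, 291 and 263 FPKM at 6 hr. Its mean was 3.51-fold higher (log2 difference 1.81, SE 0.17, adjusted p = 1.48e-08). *Pkm*, which makes pyruvate and ATP, was at 92.9, 81.7 and 93.1 FPKM at 0 hr and at 298, 260, 270.1, 332 and 313 FPKM at 6 hr, 3.3-fold higher (log2 difference 1.71, SE 0.24, adjusted p = 4.3e-06). The libraries of the 2 times did not overlap for either gene, as for 9 of the 10 members and 38.1% of all genes. *Eno1* rose from 75.4 ± 14.4 to 121 ± 15.1 FPKM (log2 difference 0.68, adjusted p = 0.00476), *Pgk1* from 2.93 ± 0.822 to 5.44 ± 0.814 (0.73, adjusted p = 0.00325) and *Gapdh* from 11.7 ± 2.62 to 19.1 ± 3.2 (0.67, adjusted p = 0.0115). The *Gapdh* call was lost without control replicate 2 at 0 hr (adjusted p = 0.0852).

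In the upper part of the pathway, *Pfkp* and *Pfkfb3* rose, *Hk3* fell, and *Hk2* and *Aldoa* were not called. *Pfkp* was at 3.84, 0.583 and 1.8 FPKM at 0 hr and at 15.6, 17.3, 10.9, 16.7 and 28 FPKM at 6 hr. Every library at 6 hr lay above every library at 0 hr, and the log2 difference was 2.69 (SE 0.33, adjusted p = 5.26e-07), the largest of the 10 genes. *Pfkfb3* was at 43.2, 35.1 and 48.8 FPKM at 0 hr and at 152, 712, 56.2, 285 and 80.5 FPKM at 6 hr (log2 difference 1.99, SE 0.47, adjusted p = 0.00142). All libraries at 6 hr were again higher, but they differed among themselves more than those of any other member and group, with an SD of 105% of the mean. *Hk3*, the hexokinase found mainly in myeloid cells, was at 36.5, 42.3 and 50.9 FPKM at 0 hr and fell to 22.7, 13.1, 18.3, 17.4 and 23 FPKM (log2 difference -1.17, SE 0.20, adjusted p = 5.36e-05). *Hk2*, often named as the inducible hexokinase, was at 80.6 ± 4.36 and 81.2 ± 12.8 FPKM, with a log2 difference of 0.00 and a 95% interval from -0.33 to 0.32. *Aldoa* was at 265 ± 30.2 and 328 ± 15.4 FPKM (log2 difference 0.31, 95% interval -0.06 to 0.69, adjusted p = 0.169).

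WM repopulating cells gave a like picture at 6 hr post LPS, with 5 of the 10 genes higher, 1 lower and 4 not called, where 19.3% of all genes were higher and 19.5% lower. The median log2 difference of the 10 genes was 0.68, against 0 for all genes. *Ldha* went from 74.7, 89.5, 86.6 and 85.8 FPKM to 290.3, 242, 249 and 223 FPKM (log2 difference 1.56, SE 0.17, adjusted p = 9.61e-08). *Pkm* went from 99.2, 99.7, 115 and 115 FPKM to 381, 349, 254 and 283 FPKM (1.54, SE 0.23, adjusted p = 1.37e-05). *Pfkp* went from 2.59, 3.1, 6.35 and 4.22 FPKM to 25.7, 21.9, 17.3 and 15.8 FPKM (2.10, SE 0.32, adjusted p = 1.3e-05). In all 3 genes every library at 6 hr exceeded every library at 0 hr, and 8 of the 10 members and 39.9% of all genes did not overlap between the times. *Pgk1* rose from 2.5 ± 0.788 to 6.13 ± 0.67 FPKM (1.05, adjusted p = 7.29e-05) and *Eno1* from 83.3 ± 11.5 to 128 ± 28.4 FPKM (0.60, adjusted p = 0.0108), the latter not without WM replicate 1 at 6 hr (adjusted p = 0.056). *Hk3* fell from 46.5, 51.9, 57.3 and 49.2 FPKM to 40.7, 34.3, 24.4 and 29.1 FPKM (-0.68, SE 0.19, adjusted p = 0.0079). *Pfkfb3* was at 52.2 ± 1.14 and 91.4 ± 23.2 FPKM, and its libraries did not overlap, but its log2 difference of 0.76 missed the threshold (95% interval -0.18 to 1.70, adjusted p = 0.195) in a fit whose error for this gene holds the spread of the control libraries at 6 hr. With only the 0 and 6 hr WM libraries in the fit, its adjusted p was 0.00183. *Gapdh* was at 14.9 ± 1.98 and 19.7 ± 2.28 FPKM (0.38, adjusted p = 0.14, but 0.0325 without the 2 control libraries that stood apart and 0.0373 with only the 0 and 6 hr WM libraries), *Aldoa* at 300.2 ± 34.7 and 341 ± 45.8 (0.18, adjusted p = 0.436) and *Hk2* at 83.2 ± 5.08 and 83.2 ± 11.9 FPKM (-0.01, 95% interval -0.32 to 0.30).

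**Figure D2:**
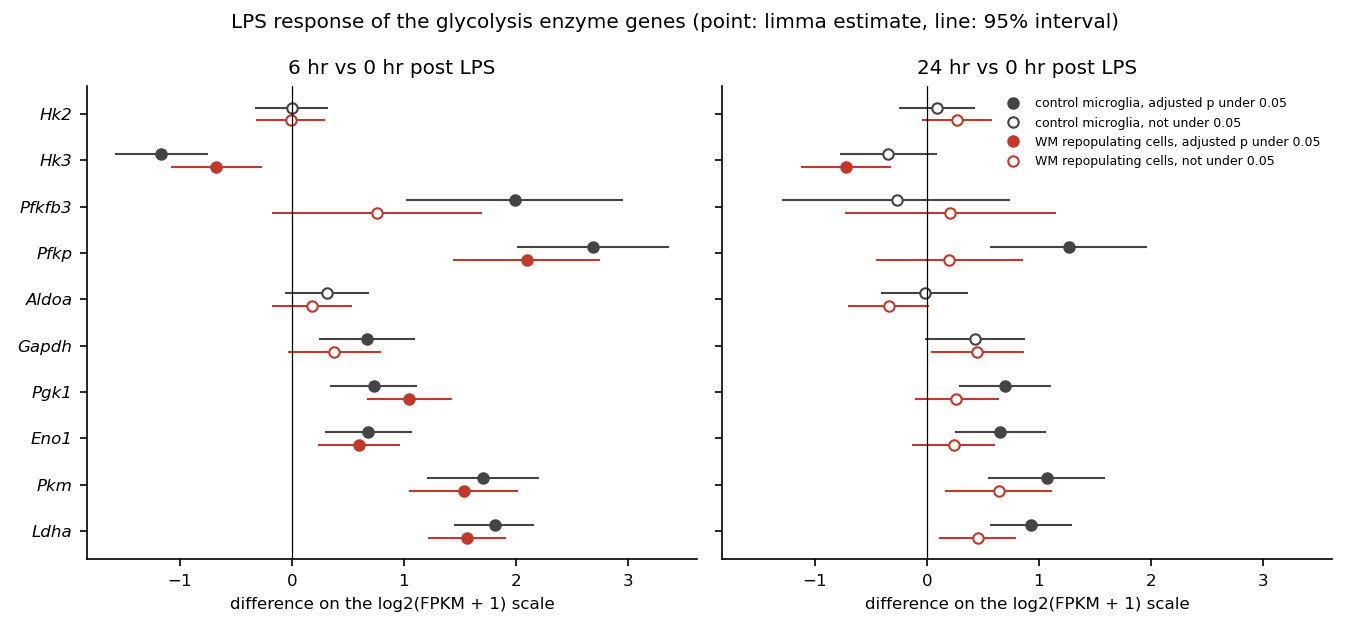
Differences on the log2(FPKM + 1) scale (horizontal axis) of the 10 genes at 6 hr (left) and 24 hr (right) against 0 hr post LPS in control microglia (grey) and WM repopulating cells (red). Points are limma estimates, filled where the adjusted p is under 0.05, and lines are 95% intervals. At 6 hr, *Pfkp*, *Pgk1*, *Eno1*, *Pkm* and *Ldha* have filled points above 0 and *Hk3* below 0 in both origins.

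At 24 hr post LPS, 5 of the 10 genes were still higher than at 0 hr in control microglia and none was lower, where 12.1% of all genes were higher and 9.23% lower. *Ldha* was at 183, 159.5, 149.9 and 102 FPKM (log2 difference 0.93, SE 0.18, adjusted p = 0.000637) and *Pkm* at 269, 290.2, 173 and 91.6 FPKM (1.07, SE 0.25, adjusted p = 0.00364). The lowest *Pkm* value, of control replicate 4, lay inside the 0 hr range. *Pfkp* was at 5.79 ± 1.42 FPKM (1.27, adjusted p = 0.00977), *Pgk1* at 5.32 ± 0.761 (0.70, adjusted p = 0.0128) and *Eno1* at 119.5 ± 22.4 FPKM (0.65, adjusted p = 0.0185). *Hk3* was back at 34.5 ± 9.2 FPKM (-0.35, adjusted p = 0.256) and *Pfkfb3* at 34.8 ± 4.28 FPKM. The calls of *Ldha* and *Pkm* held without any single control library of the 2 times, but that of *Pkm* was lost with only the 0 and 24 hr control libraries in the fit (adjusted p = 0.0603), as was that of *Pgk1* (0.0505). *Pfkp* was lost without control replicate 2 at 0 hr (adjusted p = 0.101) and *Pgk1* without replicate 3 at 0 hr (0.0957). *Eno1* was lost without replicate 2 or 3 at 0 hr or replicate 1 or 2 at 24 hr (0.0534 to 0.0917). *Gapdh*, at 16.7 ± 5.64 FPKM and not called (adjusted p = 0.166), was called without control replicate 4 at 24 hr (log2 difference 0.71, adjusted p = 0.0035), which held 8.38 FPKM against 18.5 to 20.8 in the other 3.

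In WM repopulating cells at 24 hr, none of the 10 genes was higher than at 0 hr and 1 was lower, where 10.5% of all genes were higher and 8.29% lower. The gene that was lower was *Hk3*, at 32.8, 25.6, 33.2 and 31.6 FPKM against 46.5 to 57.3 FPKM at 0 hr (log2 difference -0.72, SE 0.19, adjusted p = 0.0112). *Pkm* (169 ± 29.2 FPKM, log2 difference 0.64) and *Ldha* (117 ± 20.6 FPKM, 0.46) missed the threshold with an adjusted p of 0.0582 each. Their libraries did not overlap with 0 hr, as for 4 of the 10 members and 25.1% of all genes. Without WM replicate 4 at 24 hr, both were called higher, at 0.0403 for *Pkm* and 0.0255 for *Ldha*. Without the 2 control libraries that stood apart, which enter the error of the fit, *Pkm* (adjusted p = 0.0037), *Ldha* (0.0154) and *Gapdh* (0.0223) were called higher, as they were with only the 0 and 24 hr WM libraries in the fit (0.00514, 0.0291 and 0.0268). WM replicate 4 at 24 hr had the lowest *Ldha*, *Pkm*, *Eno1*, *Aldoa*, *Pgk1*, *Gapdh* and *Pfkp* of its group. *Gapdh* was at 20.7 ± 1.37 FPKM (0.45, adjusted p = 0.125), and *Hk2* at 101 ± 13.1 FPKM (0.27, 95% interval -0.04 to 0.58).

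Between 6 and 24 hr, several of the genes that had risen fell again. In control microglia, *Pfkfb3*, *Pfkp*, *Pkm* and *Ldha* fell and *Hk3* rose, where 15% of all genes were higher and 13.3% lower. *Pfkfb3* had the largest fall, from 257 ± 269 to 34.8 ± 4.28 FPKM (log2 difference -2.26, adjusted p = 0.000367). *Pfkp* fell by 1.42 (adjusted p = 0.000983) and *Ldha* fell by 0.88 on the log2 scale (adjusted p = 0.000211), while *Hk3* rose by 0.82 (adjusted p = 0.00174). *Pkm* fell by 0.64 (adjusted p = 0.0324), a call lost without control replicate 3 or 4 at 24 hr or replicate 1, 4 or 5 at 6 hr. Without replicate 4 at 24 hr its log2 difference was -0.30 (adjusted p = 0.186). In WM repopulating cells 5 of the 10 genes fell and none rose, where 8.19% of all genes were higher and 7.5% lower. *Pfkp* fell by 1.89 (adjusted p = 0.000225), *Ldha* by 1.11 (7.01e-05), *Pkm* by 0.90 (0.0101) and *Pgk1* by 0.78 (0.00458). *Aldoa* fell by 0.52 (adjusted p = 0.0449). This call was lost without any single WM library of the 2 times but replicate 3 at 24 hr (adjusted p of 0.0515 to 0.174). It was also lost with no limit on low values (0.054), with quantile normalization (0.0503) and with no variance trend (0.0578). Without the 2 control libraries that stood apart, its adjusted p was 0.00791.

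The 2 origins were compared at each time. At 0, 6 and 24 hr, none of the 10 genes was called between WM repopulating cells and their control counterparts, where 1.21%, 0.323% and 3.97% of all genes did. The comparison nearest to the threshold was *Pgk1* at 24 hr, at 3.96, 3.19, 3.46 and 2.14 FPKM in WM repopulating cells and 4.5, 6.33, 5.36 and 5.09 in control microglia (log2 difference -0.61, 95% interval -0.98 to -0.23, adjusted p = 0.0617). *Hk3* at 6 hr followed, at 32.1 ± 7.01 FPKM in WM repopulating cells and 18.9 ± 4.09 in control microglia (0.74, 95% interval 0.36 to 1.12, adjusted p = 0.0854). Neither gene overlapped between the origins at that time. This held for 2 of the 10 members (*Pgk1* and *Pfkfb3*) and 12.1% of all genes at 24 hr, and for 1 member and 3.78% of all genes at 6 hr. At 0 hr, *Pfkfb3* and *Pkm* did not overlap and were higher in WM repopulating cells, where 13.6% of all genes did not overlap. *Pfkfb3* was at 62.3 ± 17.5 against 34.8 ± 4.28 FPKM at 24 hr (0.79, interval -0.15 to 1.73) and at 91.4 ± 23.2 against 257 ± 269 FPKM at 6 hr (-0.92, interval -1.81 to -0.03, adjusted p = 0.519), a difference of -0.41 without control replicate 2, the library at 712 FPKM. *Pfkp* at 0 hr was at 4.06 ± 1.67 against 2.08 ± 1.65 FPKM (0.81, interval 0.10 to 1.52, adjusted p = 0.322). Without the 2 control libraries that stood apart, again none of the 10 genes was called. Nearest to the threshold was then *Ldha* at 24 hr (-0.50, adjusted p = 0.0525, against -0.33 and 0.305 with all libraries). *Hk3* at 6 hr (0.62, 0.0548), *Pgk1* at 24 hr (-0.62, 0.0749) and *Pkm* at 24 hr (-0.51, 0.0873) followed.

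The responses themselves were compared as the difference between the origins of the change from 0 hr, which 0.0237% of all genes passed at 6 hr and 0.0867% at 24 hr, and none of the 10. Genes called in 1 origin and not in the other, such as *Pfkfb3* at 6 hr and *Pfkp*, *Pkm* and *Ldha* at 24 hr, are therefore not shown to differ. The difference was -1.23 for *Pfkfb3* at 6 hr (95% interval -2.58 to 0.12, adjusted p = 0.713), or -0.72 without control replicate 2 at 6 hr, and 0.49 for *Hk3* (-0.09 to 1.07). At 24 hr it was -1.06 for *Pfkp* (-2.03 to -0.10, adjusted p = 0.504) and -0.47 for *Ldha* (-0.98 to 0.03). The intervals of *Pfkfb3*, *Hk3* and *Pfkp* hold differences of more than a log2 unit on 1 side, so differences of that size and direction are not excluded. That of *Hk2* at 6 hr was narrower, from -0.46 to 0.44.

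Markers of other cells moved with the time course. The 7 monocyte markers summed to 104 to 337 FPKM in control microglia and 126 to 399 in WM repopulating cells at 0 hr, to 1265 to 2479 and 1259 to 3435 at 6 hr, and to 441 to 563 and 132 to 689 at 24 hr. Of these markers, 6 of 7 were higher at 6 hr than at 0 hr in each origin and none was lower. Of 6 genes known to respond to LPS, 6 rose in control microglia at 6 hr and 5 in WM repopulating cells. Microglia markers went the other way, with 8 of 10 lower at 6 hr in each origin and sums of 14844 to 16805 FPKM in control microglia, against 29070.2 to 33737 at 0 hr. The 10 neutrophil markers summed to 922 to 5817 FPKM in control microglia at 6 hr, against 1837 to 9113 at 0 hr, with 1 marker lower and none higher. In WM repopulating cells, 6 of the 10 neutrophil markers were lower at 6 hr, with sums of 10308, 842, 711 and 447 FPKM, against 2937 to 11148 at 0 hr. At 24 hr the neutrophil sums were 6438 to 15309 FPKM in control microglia, with none of the 10 markers called against 0 hr, and 3194 to 7240.2 in WM repopulating cells, with 1 lower. The part of these cells in the rise of the glycolysis genes, in the fall of *Hk3* and in the comparison of the origins at 24 hr was not tested. For *Pfkfb3* at 6 hr in control microglia, the libraries with 152, 712, 56.2, 285 and 80.5 FPKM had neutrophil sums of 2137, 5817, 1394, 4228 and 922 and monocyte sums of 2139, 1265, 1550.3, 2329 and 2479 FPKM. The 2 libraries with the most *Pfkfb3* also had the highest neutrophil sums, and the library with the most of both was control replicate 2, which stood apart from its group. Without it, *Pfkfb3* was still called (log2 difference 1.48, adjusted p = 0.00112). In WM repopulating cells at 6 hr, replicate 1 had the highest neutrophil sum and, at 3435 FPKM, the highest monocyte sum. It had the lowest *Pfkfb3* of its group, at 65.2 FPKM, and the highest *Hk2*, *Hk3*, *Pfkp*, *Aldoa*, *Eno1*, *Pkm* and *Ldha*. Of the 6 calls in WM repopulating cells at 6 hr, that of *Eno1* was lost without it.

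Around the 10 genes, the partners of the same reactions did not move as 1 group. *Ldhb* fell while *Ldha* rose: it was at 261 ± 39.5 FPKM at 0 hr and 78.1 ± 9.05 at 6 hr in control microglia (log2 difference -1.72, adjusted p = 1.35e-09), and at 246 ± 23.7 and 116 ± 18.6 in WM repopulating cells (-1.09, adjusted p = 9.74e-07). The share of *Ldha* in the sum of both went from a median of 24.7% to 77.6% in control microglia and from 25.7% to 66.5% in WM repopulating cells, and was at 51.2% and 39.1% at 24 hr. The ranges at 0 and 6 hr did not meet in either origin, at 18.2% to 27% without LPS and 64.3% to 79.8% at 6 hr. *Pfkl* was at 42.2 ± 1.93 and 57.3 ± 12.4 FPKM in control microglia at 0 and 6 hr and not called (adjusted p = 0.167, but 0.0479 without control replicate 2 at 6 hr), and its level stayed above that of *Pfkp* in every library. *Hk1* was at 5.24 ± 0.462 and 4.72 ± 0.684 FPKM (adjusted p = 0.685). Of the other glycolysis genes of the list, 4 of 15 tested were higher and 4 lower at 6 hr in control microglia, and 1 was higher and 3 lower in WM repopulating cells, shares set beside the 21.4% and 21.1% of all genes higher and lower in control microglia and the 19.3% and 19.5% in WM repopulating cells. The list had a median log2 difference of 0.08 and 0.11. The 4 higher genes in control microglia became 1 without control replicate 3 at 0 hr, and the 1 in WM repopulating cells became 3 without WM replicate 3 at 6 hr, 2 without control replicate 2 at 6 hr or WM replicate 4 at 24 hr, and 3 without the 2 control libraries that stood apart. Besides *Ldhb* and *Eno2*, the largest of these changes were in the muscle enolase *Eno3* (-1.91 and -1.57) and in the aldolase *Aldoc* (1.30, WM repopulating cells). The neuronal enolase *Eno2* (1.35 in control microglia and 0.82 in WM repopulating cells) reached 1 FPKM only in libraries at 6 hr. No library exceeded 0.537 FPKM at 0 hr or 0.68 FPKM at 24 hr. *Eno2* was thus tested only because it is high at 6 hr, so its difference from 0 hr is not read as a rise. In control microglia it was at 0.562, 9.94, 0.71, 2.17 and 0.726 FPKM at 6 hr, so that its mean rests on control replicate 2. Without that library its log2 difference was 0.85. *Pfkfb4*, a relative of *Pfkfb3*, fell in both (-0.89 and -1.05).

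The transporters that bring sugars in and carry lactate out changed in both directions. All 9 of those tested were called at 6 hr in control microglia, 5 higher and 4 lower, and 8 of 9 in WM repopulating cells, 4 in each direction and *Slc2a3* not called (adjusted p = 0.13), against 21.4% higher and 21.1% lower and 19.3% and 19.5% of all genes. *Slc2a1*, the glucose carrier GLUT1, rose from 27 ± 2.43 to 138 ± 43.3 FPKM in control microglia (log2 difference 2.26, adjusted p = 2.31e-06) and from 31.4 ± 0.699 to 124 ± 24 FPKM in WM repopulating cells (1.93, adjusted p = 1.5e-05). *Slc2a5*, the fructose carrier that marks microglia, fell from 532 ± 45.3 to 65.2 ± 14.4 FPKM (-3.04, adjusted p = 1.71e-08) and from 463 ± 33.6 to 72.8 ± 15.2 FPKM (-2.67, adjusted p = 8.63e-08). *Slc2a6* rose by 2.80 and 1.67 on the log2 scale, and *Slc16a3*, the lactate exporter MCT4, was at 37.2 ± 7.03 against 13.5 ± 2.02 FPKM in control microglia (1.39, adjusted p = 0.0132) and at 41.2 ± 16 against 17.7 ± 2.49 FPKM in WM repopulating cells (1.10, adjusted p = 0.0431). Its call was lost in control microglia without control replicate 2 at 0 hr (adjusted p = 0.0518) and in WM repopulating cells without any single WM library of the 2 times but replicate 3 at 6 hr (0.0547 to 0.131). At 24 hr, *Slc2a1* was at 28 ± 12.9 FPKM in control microglia and 51 ± 7.53 in WM repopulating cells, neither called against 0 hr (adjusted p = 0.119 in WM repopulating cells, but 0.0115 without control replicate 4 at 24 hr), while *Slc2a5* was still lower in both.

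**Figure D3:**
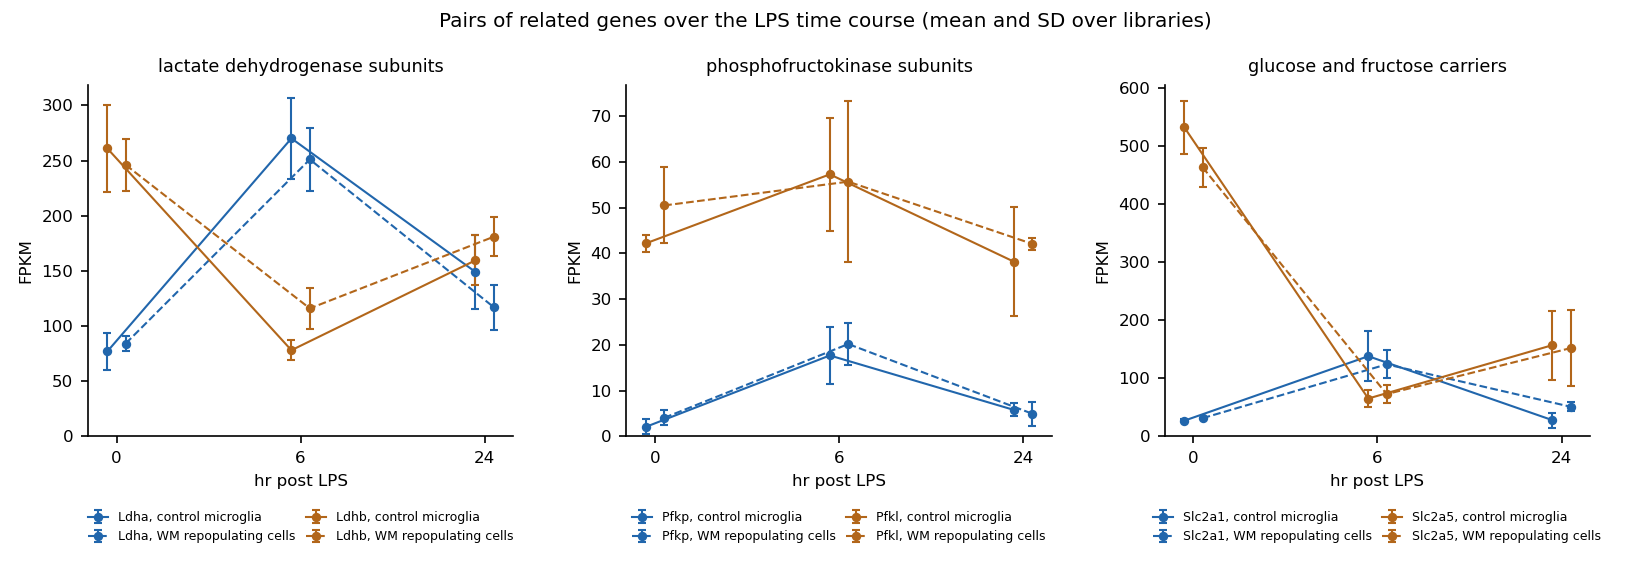
FPKM (vertical axes, mean and SD over libraries) of *Ldha* and *Ldhb*, *Pfkp* and *Pfkl*, and *Slc2a1* and *Slc2a5* at 0, 6 and 24 hr post LPS (horizontal axes) in control microglia (solid lines) and WM repopulating cells (dashed lines). *Ldha* and *Ldhb* cross between 0 and 6 hr in both origins, *Pfkp* stays below *Pfkl*, and *Slc2a5* falls from 532 to 65.2 FPKM in control microglia.

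Among regulators of these genes, 6 of 10 tested were higher and 1 lower at 6 hr in control microglia, and 4 higher and 1 lower in WM repopulating cells. Over all genes these shares were 21.4% higher and 21.1% lower in control microglia and 19.3% and 19.5% in WM repopulating cells, and they hold for each list that follows. *Hif1a* rose from 24.2 ± 4.11 to 57.4 ± 25.5 FPKM (log2 difference 1.12, adjusted p = 0.000343) and from 23.7 ± 0.722 to 44.6 ± 7.84 FPKM (0.87, adjusted p = 0.00307). *Vhl*, whose product marks HIF1 for destruction, fell in both origins (-0.66 and -0.69). *Myc* was higher at 6 hr (0.89 and 1.21) and still at 24 hr (0.62 and 1.47), in control microglia not without replicate 3 at 0 hr (adjusted p = 0.0531). Other known HIF1 targets split, with 5 of 11 higher and 3 lower in each origin: *Ddit4* (2.81 and 2.62), *Ndrg1* (2.09 and 2.39) and *Ankrd37* (1.83 and 1.73) rose, and *Pdk1* fell (-1.40 and -0.81). Without WM replicate 1 at 6 hr, 3 of these targets were higher in WM repopulating cells. Of the genes for pyruvate entry into mitochondria, 2 of 11 were higher and 3 lower in control microglia and 1 higher and 4 lower in WM repopulating cells, with *Pdk2* at -1.74 and -1.67. The 2 higher genes in control microglia became 1 without control replicate 2 or 3 at 0 hr, and the 1 in WM repopulating cells became 2 without control replicate 2 at 6 hr and 3 without both libraries that stood apart. Of the tricarboxylic acid cycle genes, 2 of 17 were higher and 2 lower in control microglia, and 2 higher and 3 lower in WM repopulating cells, with no test against the shares of all genes. Without control replicate 4 at 24 hr, 4 of the 17 were higher in control microglia. *Idh2* fell (-1.74 and -1.31) and *Idh3a* rose (1.21 and 0.76). In the pentose phosphate pathway, *Pgd* (0.71) and *Tkt* (0.61) rose and *H6pd* (-0.71, not without replicate 2 at 0 hr) fell in control microglia, and *H6pd* was the only one of 8 called in WM repopulating cells, at -1.01 (without WM replicate 3 at 0 hr, *Rpe* was also called higher). Of the 4 tested genes that slow glycolysis or run it backwards, *G6pc3* fell in both origins (-0.69 and -0.86), and *Tigar* (0.94) rose and *Pcx* (-0.69, not without WM replicate 1 or 4 at 0 hr or replicate 3 at 6 hr) fell in WM repopulating cells.

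Over the 24 libraries of the LPS experiment, the members fell into those that moved together and those that did not. The mean of the 10 genes' z-scored log2 values had a Pearson r of 0.965 with *Pkm*, 0.938 with *Ldha*, 0.912 with *Pfkp* and 0.896 with *Eno1*, and of 0.708 to 0.785 with *Aldoa*, *Gapdh* and *Pgk1*, with a lower value for *Pfkfb3*. For *Hk2* it was -0.223 and for *Hk3* -0.435. The closest pair was *Pkm* and *Ldha* (r = 0.943) and the most opposed was *Hk3* and *Pfkfb3* (r = -0.671). Each member is part of the mean of the 10 genes, which raises its r with that mean, whereas genes outside the 10 have no such part. The libraries share the LPS groups, and the values describe these libraries only. Among 12674 other genes, those most like the members' mean were *Irf7* (r = 0.942), *Emilin2* (0.936), *Phf11b* (0.923), *Glrx* (0.918) and *Pyhin1* (0.917).

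In the GLOBAL experiment, none of the 10 genes was called between GLOBAL repopulation and control, and 0% of the 16651 genes tested were. By limma, 1504 genes had an unadjusted p under 0.05. *Hk2* was at 48.9 ± 2.09 FPKM in GLOBAL repopulation and 46.7 ± 8.54 in control, *Hk3* at 38.7 ± 4.7 and 41.9 ± 5.95, *Aldoa* at 162 ± 12.9 and 187 ± 24.2 and *Pkm* at 106 ± 8.5 and 127 ± 39.3 FPKM. The libraries of 2 of the 10 members and of 9.96% of all genes did not overlap, the 2 being *Ldha*, at 63.9, 66.8 and 58.6 FPKM in GLOBAL repopulation and 80.5, 77, 71.7 and 69.6 in control (log2 difference -0.24, 95% interval -0.51 to 0.03), and *Pfkfb3*, at 82.5, 78.4 and 78.5 against 74.7, 66.3, 58 and 73.4 FPKM (0.23, interval -0.06 to 0.52). Some other intervals were wider, from -0.82 to 0.25 for *Pgk1*, -0.66 to 0.24 for *Pkm* and -0.53 to 0.68 for *Pfkp*. Changes within these intervals are not excluded. *Pfkp* was again low, at 1.78 to 4.07 FPKM. The 10 neutrophil markers summed to 2178 to 23241 FPKM in GLOBAL control and 1292 to 4674 in GLOBAL repopulation, and their part in these values was not tested. *Gapdh* was at 83 ± 13.5 FPKM in GLOBAL control and *Pgk1* at 21.2 ± 6.72, while *Eno1b* was at 148 ± 43.9 FPKM beside *Eno1* at 129.9 ± 39.7. In control microglia of the LPS experiment at 0 hr, *Eno1b* was at 6.02 ± 0.58 FPKM beside *Eno1* at 75.4 ± 14.4. The tables were normalized separately, and these levels are set side by side without a test.

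**Figure D4:**
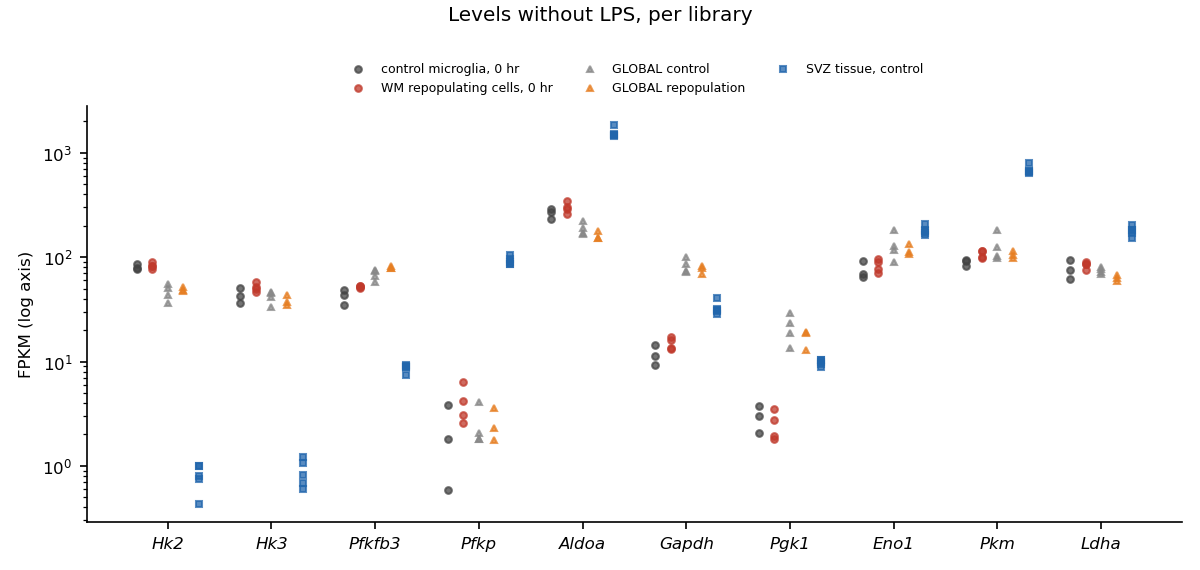
FPKM on a log axis (vertical) of the 10 genes (horizontal) in each library without LPS of control microglia and WM repopulating cells, of GLOBAL control and GLOBAL repopulation and of SVZ control tissue. *Hk2* and *Hk3* lie at 33.6 to 89.8 FPKM in sorted cells and at 0.436 to 1.22 FPKM in SVZ tissue, whereas *Pkm*, *Aldoa* and *Pfkp* are higher in the tissue.

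The SVZ tissue showed another set of isozymes. *Aldoa* (1549.8 ± 161 FPKM, n = 5), *Pkm* (688 ± 60.6), *Eno1* (181 ± 17.1), *Ldha* (179.8 ± 18.5) and *Pfkp* (93 ± 8.63) were the highest members in control tissue, while *Hk2* was at 0.796 ± 0.232 and *Hk3* at 0.878 ± 0.263 FPKM. *Hk1* was at 58.1 ± 5.18 FPKM there, and *Aldoc*, an aldolase of astrocytes, at 1027 ± 169 FPKM. Levels of the tissue table and of the sorted cells are set side by side here without a test.

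After 14 days of PLX3397, 1 of the 8 members tested was called, where 1.26% of all genes were. *Pgk1* was at 10.3, 10.4, 9.54, 9.96 and 8.81 FPKM in control and at 6.73, 7.33, 7.77, 7.09 and 8.06 FPKM at 14 days (log2 difference -0.36, SE 0.08, adjusted p = 0.0359). The groups did not overlap, as for 2.77% of all genes, but the call was lost without any single library but control replicate 5 or PLX3397 replicate 5 (adjusted p of 0.0651 to 0.133), and *Pgk1* rests on 80 to 165 reads a library. The other 7 members tested had log2 differences between -0.02 and 0.16. At 5 day recovery, none of the 8 was called against control, where 1.27% of all genes were, nor against 14 day PLX3397, where 0.325% were. *Eno1* at recovery was at 204, 197, 193, 232 and 299 FPKM against 181 ± 17.1 in control (0.30, 95% interval 0.07 to 0.53, adjusted p = 0.203). The 7 astrocyte markers summed to 482 to 541 FPKM in control, 598 to 687 at 14 days and 622 to 809.7 at recovery. Erythrocyte markers summed to 32.4 to 79.3, 41.8 to 57.9 and 91.3 to 336 FPKM. Sums of neuron, neuroblast, oligodendrocyte and endothelial markers overlapped between the groups. The part of other cells in the levels of the members was not tested.

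*Hk2* and *Hk3* did not reach 1 FPKM in 3 SVZ libraries and were left out of that fit. *Hk2* was at 0.744, 0.436, 0.998, 1 and 0.8 FPKM in control, at 0.303, 0.222, 0.194, 0.266 and 0.198 at 14 day PLX3397 and at 0.371, 0.176, 0.167, 0.356 and 0.345 FPKM at 5 day recovery. *Hk3* was at 0.594, 1.07, 0.816, 0.686 and 1.22 FPKM in control, at 0.204, 0.0865, 0.149, 0.48 and 0.111 at 14 day PLX3397 and at 0.227, 0.483, 0.211, 0.221 and 0.388 FPKM at recovery. Every library of either later group was below every control library for both genes. Of the genes that passed the limit, 2.77% did not overlap with control at 14 days and 3.1% at recovery. The 14 day PLX3397 mean was 29.7% of control for *Hk2* and 23.5% for *Hk3*, and the recovery mean 35.5% and 34.9%. With the limit on low values dropped, both were lower at 14 days (adjusted p = 0.0024 for *Hk2* and 0.00219 for *Hk3*) and at recovery (0.00748 and 0.0168). These values rest on 6 to 42 reads a library for *Hk2* and 2 to 38 for *Hk3*. In the same libraries the 10 microglia markers summed to 288 to 411 FPKM in control, 13.6 to 17.6 at 14 days and 24.8 to 38 at recovery, with 9 of 10 lower in both comparisons with control, and *C1qa* at 0.116 ± 0.13 FPKM at 14 days. The part of the lower microglia markers in the hexokinase levels was not tested. The carrier *Slc2a5* went the same way, from 3.93 ± 0.737 FPKM to 0.498 ± 0.0964 at 14 days (log2 difference -1.71, adjusted p = 2.32e-08) and 0.51 ± 0.172 at recovery.

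**Figure D5:**
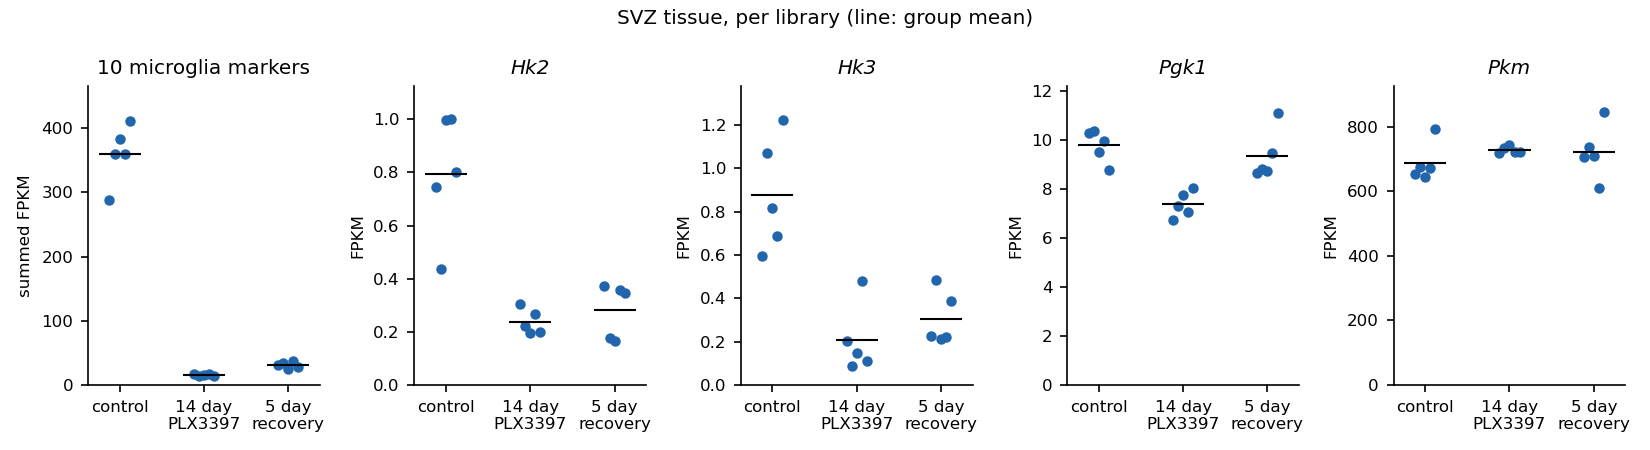
FPKM in SVZ tissue (vertical axes), per library, of the 10 microglia markers (summed), *Hk2*, *Hk3*, *Pgk1* and *Pkm*, with control tissue at the left, PLX3397 for 14 days in the middle and recovery at the right. Lines are group means. The marker sum, *Hk2* and *Hk3* are lower in all libraries of the later groups than in any control library, and *Pkm* lies at 609 to 846 FPKM throughout.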

How the data were processed

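Sorted CD11b+CD45int cells (24 libraries in the LPS experiment and 7 in the GLOBAL experiment) and SVZ tissue (15 libraries) were sequenced as paired 43-base reads from Smart-seq2 libraries, per the study's methods. The extract protocol in the labels instead names paired 150-base reads and frozen cortex, hippocampus and thalamus or striatum, which match neither sorted cells nor SVZ. The authors deposited 3 tables of FPKM values, named RPKM in the methods, and the processing notes name STAR, featureCounts, edgeR, limma and mm10. The tables were normalized separately and were tested separately. The number of columns left unused was 0. Reads per library were recovered from the smallest steps of the deposited FPKM values.

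Genes with at least 1 FPKM in 3 or more libraries were tested as log2(FPKM + 1), a pseudocount of 1, which understates changes of low genes. Each table was fitted once over all its groups with limma 3.58.1 in R 4.3.3, with Benjamini-Hochberg adjustment over all genes tested. Levels are mean ± SD. The steps were tested on simulated data with independent normal noise, in which 200 genes were changed by 1 or 2 on the log2 scale. For control microglia at 6 against 0 hr, over 12684 genes, 55% and 91% of these were recovered, and 3.31% of calls were false. For GLOBAL repopulation against control, 44% and 83% were recovered, and 5.93% of calls were false. For SVZ tissue at 14 day PLX3397 against control, 93% and 100% were recovered, and 3.5% of calls were false. In the data at 6 hr, 21.4% of genes were higher and 21.1% lower in control microglia, so the simulated shares do not carry over to that comparison.

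The members and lists were chosen with earlier results of these data known. Named were the 10 members, up to 3 called genes of largest change per list and comparison, paralogs, and the 5 genes most like the members. *Slc16a3*, *Pfkfb4*, *Vhl*, *Pdk1*, *Rpe* and *Slc2a3* were named after their values were seen. Alternatives were a pseudocount of 0.1, no limit on low values, quantile normalization, no variance trend, a replicate block, only the groups compared, and each library left out. Leaving out both libraries that stood apart, leaving out each library for the genes of the other lists, and windows of 150 bases, were chosen after seeing the data. Promoter windows and gene bounds came from RefSeq (GRCm38.p6).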

Additional observations from a re-analysis of the deposited data

Results flagged for a closer look

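Within groups of 4 to 10 libraries, 5 of 90 combinations of a member and a group held a library far from the others by Dixon's 95% criterion, which chance meets in about 1 in 20, or 4.5 of 90. Groups of 3 libraries were not examined. In SVZ control, replicate 5 had the highest *Aldoa* at 1833 FPKM (next 1519.8), *Gapdh* at 40.3 FPKM (next 32.1) and *Pkm* at 794 FPKM (next 677). *Pfkfb3* was lowest in SVZ control replicate 1, at 7.43 FPKM (next 8.77). *Pfkp* was highest in GLOBAL control replicate 1, at 4.07 FPKM (next 2.05), the library with the highest sum of neutrophil markers in that experiment, at 23241 FPKM. The part of these cells in the *Pfkp* value was not tested.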

How the results depend on the processing

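Of 865 recomputed values of members that were called or whose difference is printed, 806 kept their direction and their side of the threshold, 39 lost a call, 14 gained one and 6 changed sign. Those changes of sign were in *Hk2* at 6 against 0 hr, whose log2 difference was near 0: 0.04, 0.01, 0.05 and 0.04 without control replicate 1 at 0 hr and control replicates 1, 2 and 4 at 6 hr, and 0.03 and 0.09 without WM replicate 4 at 0 hr and WM replicate 2 at 6 hr. Over all single libraries left out, it ranged from -0.09 to 0.05 in control microglia and from -0.06 to 0.09 in WM repopulating cells. Over all 144 member differences tested, printed or not, 81 of 2304 recomputed values changed sign, in 31 differences, of which 0 were called. The largest such difference was 0.24 before and 0.26 after the change. The count of members called at 24 against 0 hr was 5 in control microglia, 3 with only the groups compared and 3 to 6 when single libraries were left out, with 3 without control replicate 2 or 3 at 0 hr. In WM repopulating cells at 24 hr it was 1, and 4 with only the groups compared, 4 without the 2 libraries that stood apart (in both, *Gapdh*, *Pkm* and *Ldha* higher beside *Hk3* lower), and 1 to 3 when single libraries were left out. For 14 day PLX3397 against control it was 1, and 3 with no limit on low values, 0 with quantile normalization and 0 to 1 when single libraries were left out. For 5 day recovery against control it was 0, and 2 with no limit on low values, these being *Hk2* and *Hk3*. The cause of these changes was not tested, except that dropping the limit lets *Hk2* and *Hk3* into the SVZ fit.

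The replicate numbers were not taken as pairs in the main fits. Deviations of same-numbered libraries had a mean correlation of -0.000368 in the LPS experiment (-0.19 to 0.266), against 0.000228 for libraries of other numbers. In the GLOBAL experiment it was 0.0984 (0.0562 to 0.137), against -0.0326. In the SVZ experiment it was 0.0699 (-0.155 to 0.486), against -0.0176. Such values cannot show whether libraries of a number shared a day or a litter. With a replicate block, 2 members were called in WM repopulating cells at 24 hr, *Ldha* being added (adjusted p = 0.0414), and 0 at 14 day PLX3397, where *Pgk1* had an adjusted p of 0.115. The block also ended the calls of *Pkm* in control microglia (0.0522) and of *Aldoa* in WM repopulating cells (0.0504) at 24 against 6 hr. *Gapdh* and *Pgk1* are limited by few reads and by copies elsewhere in the genome. *Pfkp*, too, had as few as 16 reads in a library of the LPS experiment.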
